A study of Homo sapiens with 12 samples.

Results

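OCI-Ly7, a B-cell line from a diffuse large B-cell lymphoma, was profiled after 24 h with PLS-123 at 1 µM, ibrutinib at 10 µM, ibrutinib at 1 µM or vehicle, with 3 arrays in each of the 4 groups. All groups came from the same line and the same culture medium, and both compounds are covalent inhibitors of Btk, the kinase that passes the signal of the B-cell receptor to calcium and NF-κB. The genes described here are the detected long intergenic non-coding RNAs. Their symbols begin with LINC, each has a probe set annotated with that symbol alone, and the brightest such probe set reached a mean log2 intensity of 4.5 over the 12 arrays. In all, 80 of 841 LINC genes on the array met this rule (9.51%), whereas 53.6% of all annotated genes reached the same level. Nothing in the labels stated whether the 3 arrays of a group came from separate cultures, so p-values measure the spread between these arrays, which may be technical.

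LINC genes are transcribed from stretches between protein-coding genes, are often spliced and carry a poly(A) tail, and yield no known protein. Many are expressed in a single lineage, and a few have been studied in detail, such as LINC-PINT, a transcript induced by p53 that binds the Polycomb complex PRC2 in mouse cells. LINC01857, LINC02397 and LINC00926 are known from human blood as transcripts of B cells. For most others no function is established.

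The genes were chosen by their mean intensity over the 12 arrays, so levels are given as a description, and probe sets of different genes are not set against each other as amounts of RNA. Mean log2 intensities lay between 4.55 and 9.51 with a median of 5.44, against a median of 7.51 for all 10592 genes that reached 4.5. Only 9 of the 80 genes reached 7, whereas 23 lay under 5. Just inside the limit were LINC01342 at 4.5865, LINC01731 at 4.5813 and LINC00174 at 4.5471, and just outside it were LINC02481 at 4.4996, LINC00664 at 4.4959 and LINC00868 at 4.4948. Altogether 73 genes reached 4.5 in every group, and 79 of the 80 did so in vehicle cells, the exception being LINC00174 at 4.41. LINC01857 passed through ibrutinib 1 µM and vehicle cells alone, so that it had to differ between groups once it was low elsewhere. All 80 were annotated as long non-coding RNA by RefSeq, on 22 chromosomes, with 15 on chromosome 1. For 13 genes the probe set was of the _x_at or _s_at kind, which can also read related transcripts, and 46 genes had more than 1 probe set. The median SD within groups was 0.12 on the log2 scale.

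B-cell markers were present: 7 of 8 listed genes were measured, all 7 reached 4.5, and their summed intensity ran from 11881 to 12459 in PLS-123 arrays, 12303 to 12509 in ibrutinib 10 µM arrays, 15750 to 16383 in ibrutinib 1 µM arrays and 15605 to 16293 in vehicle arrays. None of the 6 T-cell markers and none of the 5 measured myeloid markers reached 4.5. Of 7 stromal and epithelial markers, COL1A1 and KRT8 did. The log2 difference between 3′ and 5′ probe sets of ACTB, a sign of RNA integrity, averaged 2.93 ± 0.20 in PLS-123, 2.74 ± 0.08 in ibrutinib 10 µM, 2.67 ± 0.18 in ibrutinib 1 µM and 2.64 ± 0.04 in vehicle arrays (SD, n = 3 each). Single B-cell markers went both ways. Mean log2 intensity of MME was 10.82 with PLS-123, 10.58 with 10 µM ibrutinib and 9.13 with vehicle, and that of CD79B was 11.49, 11.46 and 11.18 in the same order. BCL6 had 10.31, 10.44 and 11.77, CD22 had 7.97, 8.24 and 10.11 and MS4A1 had 11.76, 11.84 and 12.38. For GAPDH the difference between 3′ and 5′ probe sets averaged 0.45 ± 0.02 in PLS-123, 0.39 ± 0.01 in ibrutinib 10 µM, 0.27 ± 0.03 in ibrutinib 1 µM and 0.31 ± 0.04 in vehicle arrays. The B-cell sum and the means of both differences thus moved with PLS-123 and 10 µM ibrutinib. With 1 µM ibrutinib the B-cell sum and the ACTB difference overlapped vehicle. Their part in the results below was not tested, except that the ACTB difference was also added to the fit.

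PLS-123 changed 16 of the 80 LINC genes relative to vehicle, 13 downward and 3 upward (limma, Benjamini-Hochberg over all 54613 probe sets, called where the adjusted p was under 0.05). Over all probe sets, 10.4% were called lower and 6.36% higher in this comparison. Among all 10592 detected genes 33.8% were called, against 20% of the LINC genes. Split by level, at a mean of 6 or higher, a limit set after the data were seen, 32% of 25 LINC genes were called and 37.9% of all genes, while under 6 the shares were 14.5% of 55 LINC genes and 21.5% of all genes. The median log2 fold change of the LINC genes was -0.05, against -0.07 for all detected genes. For 62 of the 80 the 95% interval lay within a 1.5-fold change either way. The 64 genes not called had log2 fold changes between -0.38 and 0.51 with SEs of 0.08 to 0.18. The highest was that of LINC01003, on an _s_at probe set, above the called rises of LINC01089 (0.45) and LINC00957 (0.41). LINC01003 read 7.96, 7.69 and 7.79 with PLS-123 against 7.39, 7.10 and 7.43 with vehicle, and it was called in 9 of 24 other fits. In these bulk samples, less RNA per cell and fewer cells with the transcript cannot be told apart.

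**Figure D1:**
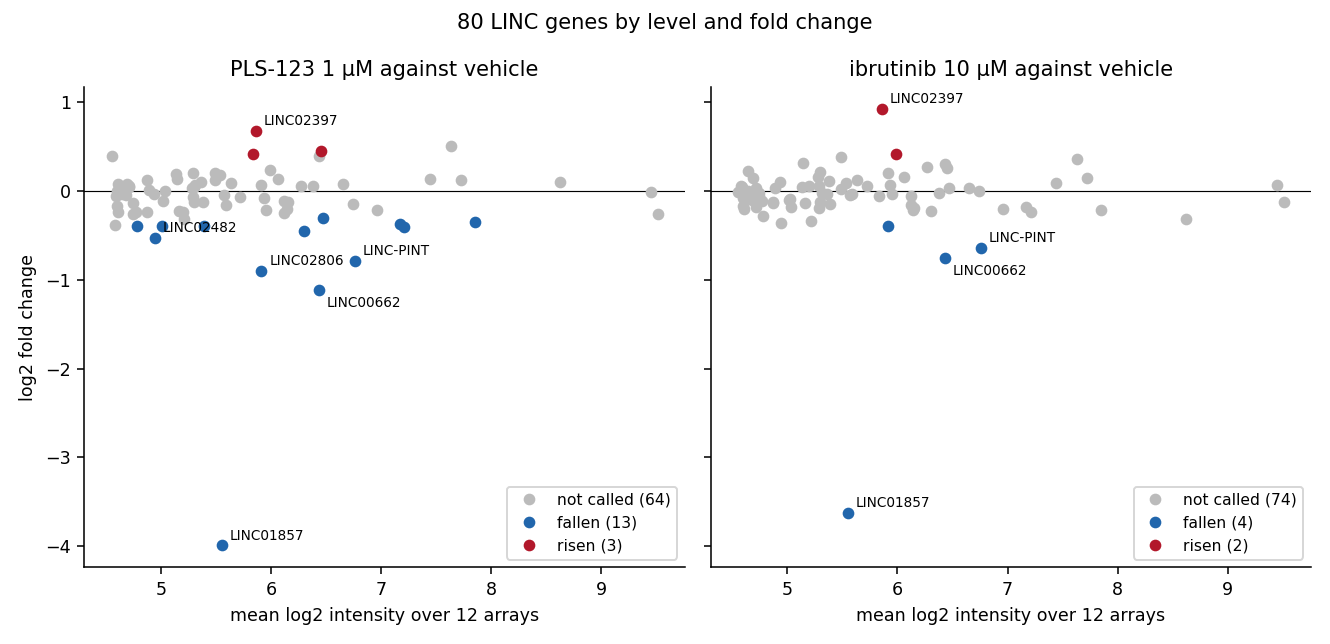
Log2 fold change against vehicle (y axis) by mean log2 intensity over the 12 arrays (x axis) for the 80 LINC genes, with PLS-123 1 µM on the left and ibrutinib 10 µM on the right. Most points lie near 0, PLS-123 has 13 fallen and 3 risen genes and ibrutinib 10 µM has 4 and 2, and LINC01857 lies far below the rest at -3.99 and -3.62.

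LINC01857 showed the largest fall of the group. It passed the limit of 4.5 only through the vehicle and ibrutinib 1 µM arrays. Its adjusted p-values and calls, here and below, are therefore a description and no support for a difference. Its log2 intensity was 3.28, 3.87 and 3.39 in PLS-123 arrays, 3.74, 3.91 and 4.0 in ibrutinib 10 µM arrays, 7.31, 7.30 and 7.29 in ibrutinib 1 µM arrays and 7.57, 7.47 and 7.46 in vehicle arrays. The 6 arrays with PLS-123 or 10 µM ibrutinib were all far below the other 6, and below the limit of 4.5 used to choose genes, near the median of 3.87 over all probe sets. The fold is therefore given as a bound, with the low level set at 4.5. With PLS-123 the intensity was at least 8.01-fold lower than with vehicle (measured log2 difference -3.99 ± 0.13, SE, adjusted p = 2.7e-10). With 10 µM ibrutinib it was likewise at least 8.01-fold lower (measured log2 difference -3.62 ± 0.13, SE, adjusted p = 6.35e-10), so the bound does not order the treatments. The gene has 1 probe set, on which 24 other fits gave measured differences of -4.17 to -3.87 with PLS-123 and -3.68 to -3.55 with ibrutinib.

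LINC00662, studied mainly as a transcript raised in several carcinomas, fell next most. Its brightest probe set read 6.01, 5.71 and 5.65 on the log2 scale with PLS-123, 6.10, 6.28 and 6.04 with 10 µM ibrutinib, 6.91, 6.93 and 6.80 with 1 µM ibrutinib, and 7.0, 6.84 and 6.84 with vehicle. Every PLS-123 array was below every other array, and the 10 µM ibrutinib arrays lay between these and the remaining 6. The intensity was 2.15-fold lower with PLS-123 than with vehicle (log2 fold change -1.11 ± 0.11, SE, adjusted p = 7.31e-06). LINC00662 has 4 further probe sets, and with PLS-123 the log2 fold changes of these were -1.29, -0.71 and -0.52, all called, and 0.05 for the last (adjusted p = 0.872), so the probe sets did not move alike.

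LINC02806, of no established function, lies between NBPF11 and PPIAL4G, both of multigene families with near-identical copies, so its signal may include related transcripts. It read 5.43, 5.37 and 5.23 on the log2 scale with PLS-123, 5.79, 6.10 and 5.65 with 10 µM ibrutinib, 6.23, 6.25 and 6.15 with 1 µM ibrutinib, and 6.21, 6.31 and 6.22 with vehicle. PLS-123 arrays stood apart below all others. The fall with PLS-123 was 1.87-fold (log2 fold change -0.90 ± 0.11, SE, adjusted p = 5.2e-05). A less bright probe set of the gene gave -1.34 ± 0.19 (adjusted p = 0.000299) and a dim one 0.12 (adjusted p = 0.569).

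LINC-PINT read 6.39, 6.39 and 6.25 with PLS-123, 6.44, 6.56 and 6.47 with 10 µM ibrutinib, 7.11, 7.09 and 7.05 with 1 µM ibrutinib and 7.06, 7.14 and 7.18 with vehicle, in log2 intensity. The arrays formed a low set of 6 and a high set of 6 that did not overlap. It was 1.72-fold lower with PLS-123 than with vehicle (log2 fold change -0.79 ± 0.08, SE, adjusted p = 1.01e-05). The median over its 4 probe sets gave -0.17 with PLS-123 (adjusted p = 0.152) and -0.11 with 10 µM ibrutinib (adjusted p = 0.429), and none of its 3 other probe sets reached 4.5.

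**Figure D2:**
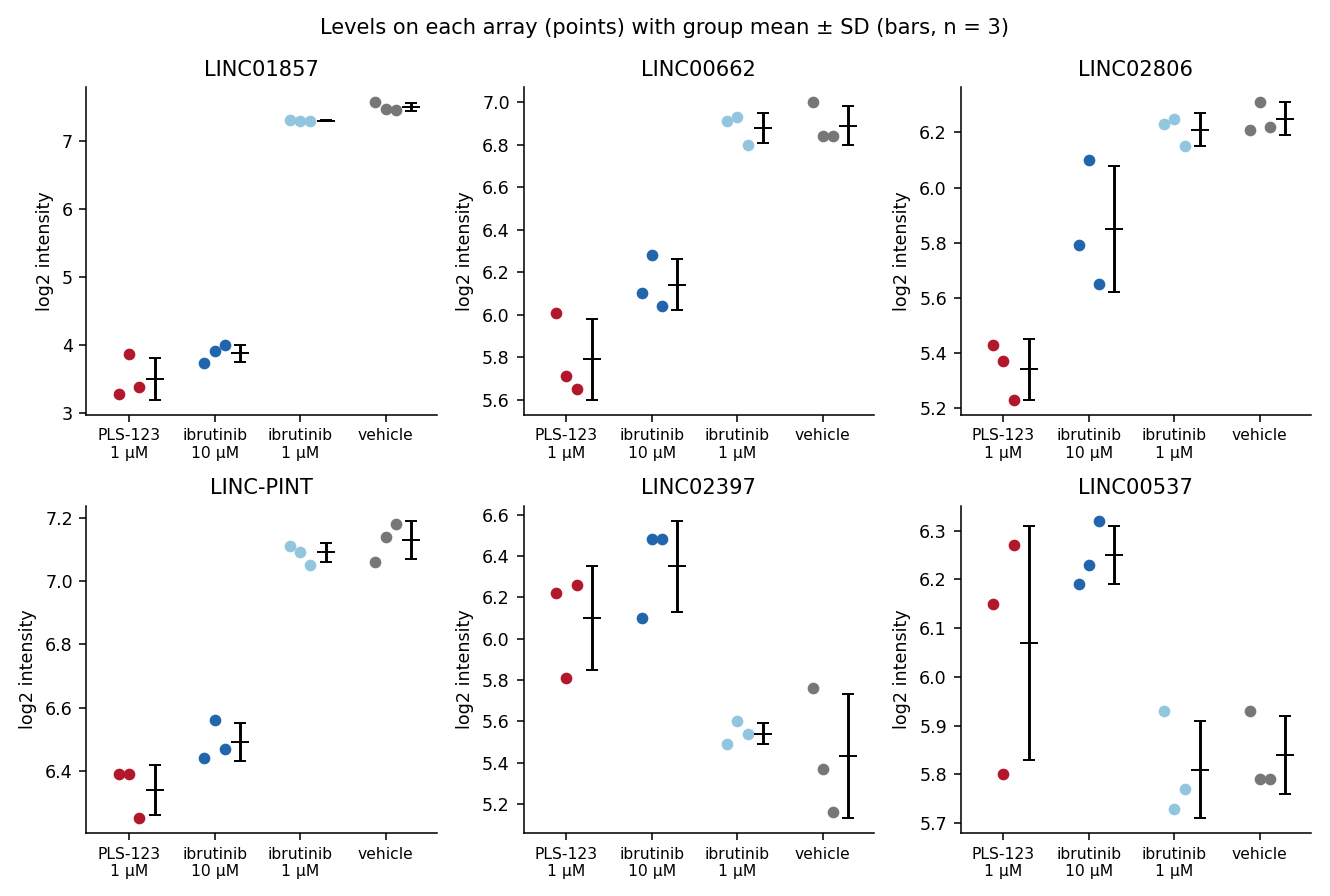
Log2 intensity on each array (points) of 6 LINC genes, with the group mean ± SD beside the points (n = 3), for PLS-123 1 µM, ibrutinib 10 µM, ibrutinib 1 µM and vehicle from left to right. LINC01857 and LINC-PINT fall into low levels with PLS-123 and 10 µM ibrutinib and high levels with 1 µM ibrutinib and vehicle, while LINC02397 shows the opposite order.

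The other 9 falls with PLS-123 were smaller, with log2 fold changes between -0.53 and -0.31. By the rule for named genes these include LINC02482 (-0.53 ± 0.13, adjusted p = 0.0114), LINC02352 (-0.45 ± 0.12, adjusted p = 0.0189), LINC00667 (-0.41 ± 0.11, adjusted p = 0.0149) and LINC00926 (-0.40 ± 0.12, adjusted p = 0.0394). The probe sets of LINC02482 (_s_at) and LINC02352 (_x_at) can also read related transcripts. Over 24 other fits their values ran from -0.59 to -0.28 and from -0.51 to -0.18. Of the 13 LINC genes on such probe sets 30.8% were called with PLS-123, against 17.9% of the other 67. Whether these shares differ was not tested. LINC00926, the B-cell transcript, read 4.65, 4.96 and 4.72 in log2 intensity with PLS-123 and 5.18, 5.11 and 5.24 with vehicle, and its other, dimmer probe set gave 0.23 (adjusted p = 0.369). LINC00339 read 7.67, 7.60 and 7.65 with PLS-123 and 8.11, 7.89 and 7.98 with vehicle (log2 fold change -0.35 ± 0.09, SE, adjusted p = 0.0201). The 3 further probe sets of LINC00667 did not move alike: 1 fell by 0.57 (adjusted p = 0.000651), 1 about as bright gave -0.18 (adjusted p = 0.127) and a dim one 0.00 (adjusted p = 0.995). LINC02987 fell by 0.31 (adjusted p = 0.04), and LINC00528, LINC00324 and LINC01128, named after their values were seen, by 0.40, 0.39 and 0.37.

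LINC02397 rose most. It read 6.22, 5.81 and 6.26 in log2 intensity with PLS-123, 6.10, 6.48 and 6.48 with 10 µM ibrutinib, 5.49, 5.60 and 5.54 with 1 µM ibrutinib, and 5.76, 5.37 and 5.16 with vehicle. The lowest PLS-123 array exceeded the highest vehicle array by a small margin. The intensity was 1.59-fold higher with PLS-123 than with vehicle (log2 fold change 0.67 ± 0.16, SE, adjusted p = 0.00989) and 1.9-fold higher with 10 µM ibrutinib (0.92 ± 0.16, SE, adjusted p = 0.00139). Without PLS-123 replicate C the adjusted p with PLS-123 was 0.0501. After Benjamini-Hochberg adjustment the methods' t-test called LINC02397 in no comparison. At 1.5-fold and an unadjusted p under 0.05, that test called it for both treatments against vehicle and between the ibrutinib doses.

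LINC01089, studied as a metastasis-restraining transcript in breast cancer cells, read 6.57, 6.71 and 6.87 with PLS-123 against 6.15, 6.22 and 6.42 with vehicle (log2 fold change 0.45 ± 0.12, SE, adjusted p = 0.019), and a second probe set gave 0.48 (adjusted p = 0.00457). It overlaps SETD1B, which encodes a histone H3K4 methyltransferase and also rose, by 0.39 ± 0.09 (adjusted p = 0.0105), so its signal cannot be assigned with certainty. LINC00957 read 5.90, 6.27 and 6.23 with PLS-123 against 5.72, 5.67 and 5.79 with vehicle (0.41 ± 0.13, SE, adjusted p = 0.0432). None of its 4 other probe sets reached 4.5, and these gave log2 fold changes between -0.07 and 0.11, none called. The call for LINC00957 was lost in 13 of 24 other fits: the median over probe sets gave 0.05 (adjusted p = 0.837), and leaving out any of 7 arrays, PLS-123 replicates B and C, replicate C of either ibrutinib dose and each vehicle replicate, gave an adjusted p of up to 0.145.

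How far the smaller calls depended on single arrays was tested by leaving out each of the 12 in turn. In all 12 fits LINC01857, LINC00662, LINC02806 and LINC-PINT stayed called, and these 4 were also the genes called with the ACTB difference in the model. For LINC01857 this is a description alone, since it was chosen through the groups where it was high. Over all 24 other fits the call was lost in 13 for LINC02987, 12 for LINC00926, 8 for LINC00339, 7 each for LINC01089 and LINC02352, 5 for LINC02482, 4 for LINC00667 and 3 for LINC02397. The 24 include the main fit with a 1.5-fold minimum, by adjusted and by unadjusted p. There all of these genes but LINC02397 lost the call by construction, as their changes were smaller. Without PLS-123 replicate C the count was 4 in place of 16, without vehicle replicate B it was 8 and without vehicle replicate A it was 10. Without PLS-123 replicate B, 8 genes fell in place of 13. Rises, 3 with all arrays, numbered 0 without PLS-123 replicate C, 1 without vehicle replicate A or B and 5 without ibrutinib 1 µM replicate B.

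Ibrutinib at 10 µM changed 6 LINC genes relative to vehicle, 4 downward and 2 upward. Over all probe sets 4.62% were called lower and 5.39% higher. Of the LINC genes 7.5% were called, against 21.3% of all detected genes. The 4 that fell, LINC01857, LINC00662, LINC-PINT and LINC02806, had also fallen with PLS-123, although both comparisons share the vehicle arrays. LINC00662 fell by 0.75 ± 0.11 (SE, adjusted p = 0.000286) and LINC-PINT, on its brightest probe set, by 0.64 ± 0.08 (adjusted p = 7.99e-05), a call lost with the median over its probe sets. LINC02806 fell by 0.40 ± 0.11 (adjusted p = 0.0291), and that call was lost on leaving out any of 5 arrays, ibrutinib 10 µM replicates A and C and each vehicle replicate (largest adjusted p = 0.13). Beside LINC02397, LINC00537 rose: it read 6.19, 6.23 and 6.32 in log2 intensity with 10 µM ibrutinib against 5.93, 5.79 and 5.79 with vehicle (0.41 ± 0.11, SE, adjusted p = 0.0324). Its other probe sets gave 0.12 and -0.11, neither called, and its own call was lost without any 1 of the 3 ibrutinib 10 µM arrays or without vehicle replicate B or C (largest adjusted p = 0.11). The 74 genes not called lay between -0.36 and 0.38 in log2 fold change. The median log2 fold change of the 80 genes was -0.03, and for 68 the 95% interval lay within 1.5-fold either way.

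**Figure D3:**
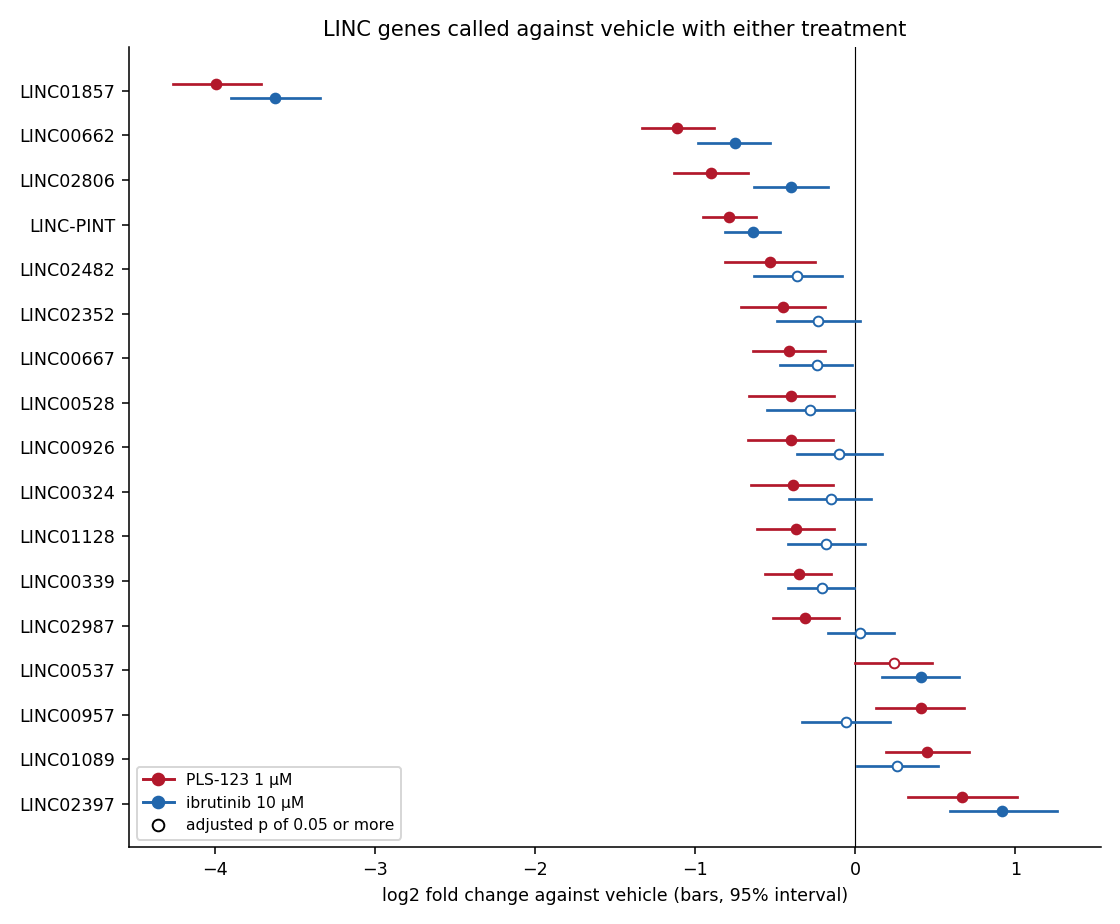
Log2 fold change against vehicle with its 95% interval (x axis) for the 17 LINC genes called with PLS-123 1 µM (red) or ibrutinib 10 µM (blue), open circles marking values that were not called. LINC01857, LINC00662, LINC02806 and LINC-PINT were called lower and LINC02397 higher with both.

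Ibrutinib at 1 µM changed no LINC gene relative to vehicle, as 0% of all probe sets were called in either direction. At an unadjusted p under 0.05 there was 1 LINC gene by limma, LINC01003, and 3 by the methods' t-test, which also called 0 after adjustment. By limma this was 1.25% of the LINC genes, against 4.2% of all detected genes. The 3 ibrutinib arrays lay wholly above vehicle for 4 LINC genes and wholly below for 3, where 4.36% and 5.16% of all probe sets did so. LINC01003 read 8.22, 7.46 and 7.56 with 1 µM ibrutinib against 7.39, 7.10 and 7.43 with vehicle, with replicate A far above its partners (0.44 ± 0.17, SE, adjusted p = 0.916). LINC00205 (0.28 ± 0.14) and LINC02688 (-0.23 ± 0.12) had the next smallest adjusted p, each 0.92. LINC01857 lay below vehicle on all 3 arrays, by 0.20 ± 0.13 (95% interval -0.48 to 0.07, adjusted p = 0.92). For 79 of the 80 genes the interval lay within 1.5-fold either way, LINC01003 being the exception.

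The dose response of ibrutinib was taken from 10 µM against 1 µM. Here 6 LINC genes were called, 4 lower and 2 higher at 10 µM, where 3.39% and 4.22% of all probe sets were called lower and higher. Of the LINC genes 7.5% were called, against 16.6% of all detected genes. In LINC01857 the mean log2 intensity was 7.50 in vehicle cells, 7.30 at 1 µM and 3.88 at 10 µM, and the 10 µM level, under the limit of 4.5, was at least 6.96-fold lower than the 1 µM level (measured log2 difference -3.42 ± 0.13, SE, adjusted p = 1.6e-09). LINC00662 had means of 6.89, 6.88 and 6.14 over the same series, a difference of -0.74 ± 0.11 between the doses (adjusted p = 0.000428). LINC-PINT had 7.13, 7.09 and 6.49 (-0.59 ± 0.08, adjusted p = 0.000184). LINC02397 had 5.43, 5.54 and 6.35, a rise of 0.81 ± 0.16 (adjusted p = 0.00464), and LINC00537 had 5.84, 5.81 and 6.25, a rise of 0.44 ± 0.11 (adjusted p = 0.0278). The call for LINC00537 was lost without ibrutinib 1 µM replicate B or C or any 1 of the 10 µM arrays, which left 1 rise. In each of these 5 genes the difference appeared between 1 and 10 µM and the step below it was not called. LINC01569, named after its values were seen, was called between the doses alone (-0.35 ± 0.09, adjusted p = 0.0384), its vehicle mean of 5.31 lying between 5.12 at 10 µM and 5.47 at 1 µM.

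**Figure D4:**
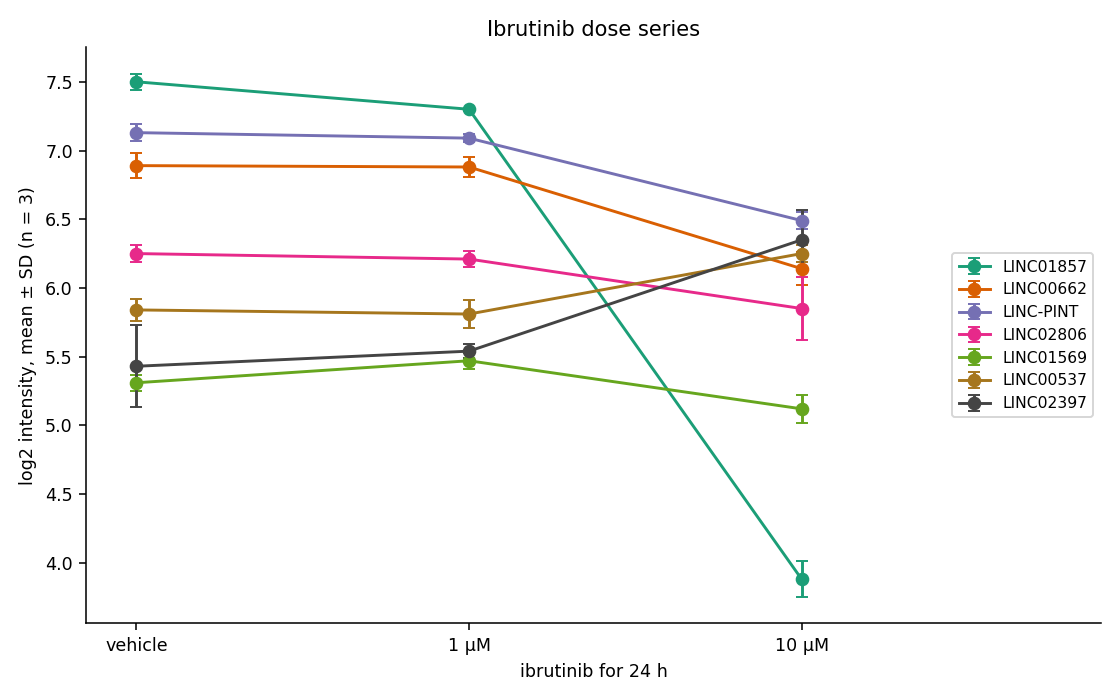
Mean log2 intensity ± SD (y axis, n = 3) in vehicle cells and after 24 h with 1 or 10 µM ibrutinib (x axis, categories not to scale) for 7 LINC genes. Levels at 1 µM stay near vehicle, and at 10 µM LINC01857 drops to 3.88 while LINC02397 rises to 6.35.

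At the matched dose of 1 µM, PLS-123 and ibrutinib differed in 8 LINC genes, 6 lower and 2 higher with PLS-123. Over all probe sets 7.93% were lower and 4.58% higher. Of the LINC genes 10% were called, against 27.1% of all detected genes. LINC01857, under the limit of 4.5 with PLS-123, was at least 6.96-fold lower there than with ibrutinib (measured log2 difference -3.79 ± 0.13, SE, adjusted p = 7.78e-10). LINC00662 differed by -1.09 ± 0.11 (adjusted p = 1.05e-05), LINC02806 by -0.87 ± 0.11 (adjusted p = 9.49e-05) and LINC-PINT by -0.74 ± 0.08 (adjusted p = 2.12e-05). These 4 calls held on leaving out each array, and the remaining 4 did not: LINC02482 (-0.42), LINC00339 (-0.34), LINC01089 (0.41) and LINC02397 (0.55). The count was 4 without PLS-123 replicate C or ibrutinib 1 µM replicate C, with 0 risen, and 5 without ibrutinib 1 µM replicate B, with 1 risen. The 72 genes not called lay between -0.45 and 0.36 in log2 fold change. For 68 of the 80 genes the 95% interval of the difference lay within 1.5-fold either way.

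PLS-123 at 1 µM and ibrutinib at 10 µM are unlike doses, and the values are given with that limit. No LINC gene was called between them, where 0.0513% of all probe sets were higher and 0.132% lower with PLS-123. At an unadjusted p under 0.05 there were 12 by limma and 9 by the methods' t-test, which called 0 after adjustment. By limma this was 15% of the LINC genes, against 23.9% of all detected genes. LINC02806 came nearest: all 3 PLS-123 arrays, between 5.23 and 5.43, were below the 3 ibrutinib arrays, between 5.65 and 6.10 (log2 fold change -0.50 ± 0.11, SE, 95% interval -0.73 to -0.27, adjusted p = 0.0752), and it was called in 3 alternative fits (adjusted p = 0.0194 to 0.0466). LINC00957 (0.46 ± 0.13, adjusted p = 0.13) and LINC02987 (-0.34 ± 0.09, adjusted p = 0.132) followed. LINC01857 was under 4.5 in both groups, so no difference is given. For 72 of 80 genes the interval lay within 1.5-fold either way.

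The brightest LINC probe sets were mostly not called. LINC00623, LINC00621, LINC01215, LINC00339 and LINC00294 had the highest means, and of these only LINC00339 was called, with PLS-123 against vehicle and against 1 µM ibrutinib. LINC00621, on an _x_at probe set, read 9.46, 9.24 and 9.46 with PLS-123 against 9.40, 9.38 and 9.41 with vehicle (95% interval of the difference -0.21 to 0.20). LINC00623, also on an _x_at probe set, read 9.38, 9.37 and 9.38 with PLS-123 against 9.57, 9.77 and 9.59 with vehicle, wholly lower without passing the test (-0.26 ± 0.10, SE, adjusted p = 0.0896). LINC01215 read 8.36, 8.30 and 8.31 with 10 µM ibrutinib and 8.70, 8.44 and 8.79 with vehicle (-0.32 ± 0.13, SE, adjusted p = 0.177), while its mean with PLS-123 was 8.74. Between 10 and 1 µM ibrutinib LINC01215 differed by -0.45, the lowest value among the genes not called there. Between PLS-123 and 10 µM ibrutinib it differed by 0.42, not called in the main fit but called by limma with an intensity trend (adjusted p = 0.0487). LINC00294 read 7.78, 7.87 and 7.73 with PLS-123 against 7.70, 7.65 and 7.69 with vehicle (adjusted p = 0.429). LINC00467, studied as a target of N-MYC in neuroblastoma cells, differed by 0.10 ± 0.08 with PLS-123 and -0.03 ± 0.08 with 10 µM ibrutinib, neither called.

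RefSeq promoters (GRCh38.p14, 250 bases before to 50 after an annotated start site) were found for 61 of the 80 genes. For each LINC gene the first promoter listed was used, which need not lie at the outermost start of the gene. CpG-rich promoters, with at least 50% GC and an observed over expected CpG ratio of at least 0.6, made up 41% of these, against 15.6% of the 527 LINC genes under the limit of 4.5. Of the 22199 promoters of protein-coding genes, not reduced to 1 per gene, 60% were CpG-rich. Motifs were searched on both strands, and the first share given is of the LINC genes and the second of all 35116 promoters: GTAAACA, the core bound by FOXO factors, 4.92% and 3.42%; the E-box CACGTG 11.5% and 7.26%; the AP-1 motif TGACTCA 9.84% and 4.95%; the octamer motif ATGCAAAT 0% and 1.77%; GGAAAA, the core bound by NFAT, 18% and 24%; and the TATA box TATAAA 9.84% and 11.5%. The promoters of 4 genes called with both treatments are shown 5′ to 3′ on the strand of the gene, with every motif match in capitals. LINC02397 lies at chr12:92466429-92466728 on the plus strand, LINC-PINT at chr7:130913261-130913560 on the minus strand, LINC02806 at chr1:148279018-148279317 on the plus strand and LINC00662 at chr19:27793891-27794190 on the minus strand.
LINC02397: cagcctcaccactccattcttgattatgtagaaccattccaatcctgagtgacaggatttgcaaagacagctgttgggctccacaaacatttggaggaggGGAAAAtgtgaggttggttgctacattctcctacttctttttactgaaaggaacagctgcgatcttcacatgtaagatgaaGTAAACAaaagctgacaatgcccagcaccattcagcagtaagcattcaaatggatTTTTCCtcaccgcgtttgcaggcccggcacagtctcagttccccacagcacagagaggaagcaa
LINC-PINT: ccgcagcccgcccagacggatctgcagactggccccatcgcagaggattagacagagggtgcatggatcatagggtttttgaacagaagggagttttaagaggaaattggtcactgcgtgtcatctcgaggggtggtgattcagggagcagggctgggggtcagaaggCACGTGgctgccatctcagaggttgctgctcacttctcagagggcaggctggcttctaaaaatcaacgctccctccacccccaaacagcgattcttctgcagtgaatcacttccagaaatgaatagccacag
LINC02806: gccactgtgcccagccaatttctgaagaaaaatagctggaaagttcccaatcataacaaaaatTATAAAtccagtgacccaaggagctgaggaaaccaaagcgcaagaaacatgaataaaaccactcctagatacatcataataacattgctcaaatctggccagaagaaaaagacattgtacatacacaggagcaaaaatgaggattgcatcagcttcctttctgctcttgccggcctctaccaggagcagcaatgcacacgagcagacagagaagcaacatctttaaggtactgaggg
LINC00662: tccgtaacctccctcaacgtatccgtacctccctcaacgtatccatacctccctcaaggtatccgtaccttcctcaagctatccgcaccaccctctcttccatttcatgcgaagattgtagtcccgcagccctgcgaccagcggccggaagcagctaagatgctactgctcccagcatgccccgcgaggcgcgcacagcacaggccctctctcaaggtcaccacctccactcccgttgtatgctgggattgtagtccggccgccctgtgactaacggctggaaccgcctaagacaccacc

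In the promoter of LINC02397, the gene that rose, the FOXO motif began at position -69, an NFAT motif at -150 and a further one, on the reverse strand as TTTTCC, at -14, counted from the start site. The LINC-PINT promoter shown held the E-box at -82, and that of LINC02806 a TATA box at -187. LINC-PINT is on the minus strand, and MKLN1 lies 0.169 kb beyond its higher-coordinate end. Whether the promoter shown lies at that end or at a start site inside the gene was not tested. LINC00662 held none of the 6 motifs in a CpG-rich promoter (59.3% GC, ratio 0.85). These are matches of letters and no measure of binding.

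Fold changes of the LINC genes were set beside those of the nearest protein-coding genes, from the gene order in RefSeq. The 63 LINC genes with a neighbour at a mean of 4.5 or higher gave 92 pairs. No limit was set on distance, which reached 3663 kb between LINC02987 and ZNF254. Across these pairs the Pearson r of the log2 fold changes was 0.02 with PLS-123 and 0.07 with 10 µM ibrutinib, a description over pairs that share arrays and, in part, genes. With PLS-123 the LINC gene was called in 18 pairs. Both genes were called in 7 pairs, 4 in the same direction and 3 in opposite directions. The neighbour was called in 27.2% of all pairs, where 33.8% of all detected genes were called. Whether the 7 pairs exceed what these shares would give was not tested. LINC02397 and BTG1, an anti-proliferative gene often mutated in lymphoma, lie 321 kb apart and both rose. BTG1 rose by 0.58 ± 0.09 with PLS-123 (adjusted p = 0.000354) and by 0.67 ± 0.09 with 10 µM ibrutinib (adjusted p = 0.000127). LINC00926 fell with PLS-123 while TCF12, an E-protein transcription factor beside it, rose by 0.74 ± 0.09 (adjusted p = 4.99e-05). LINC00528 fell along with both its neighbours, the pro-apoptotic BID (-0.47) and MICAL3 (-0.74). Around LINC01857 the neighbours METTL21A and CCNYL1 had -0.24 ± 0.10 (adjusted p = 0.121) and 0.09 ± 0.15 (adjusted p = 0.753) with PLS-123. MKLN1, next to LINC-PINT, had 0.05 ± 0.10 (adjusted p = 0.802). LINC00662 and LINC02987 start close together on opposite strands, and LINC02987 had -0.31 ± 0.09 with PLS-123, called, and 0.03 ± 0.09 with 10 µM ibrutinib (adjusted p = 0.896), against -1.11 and -0.75 for LINC00662.

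**Figure D5:**
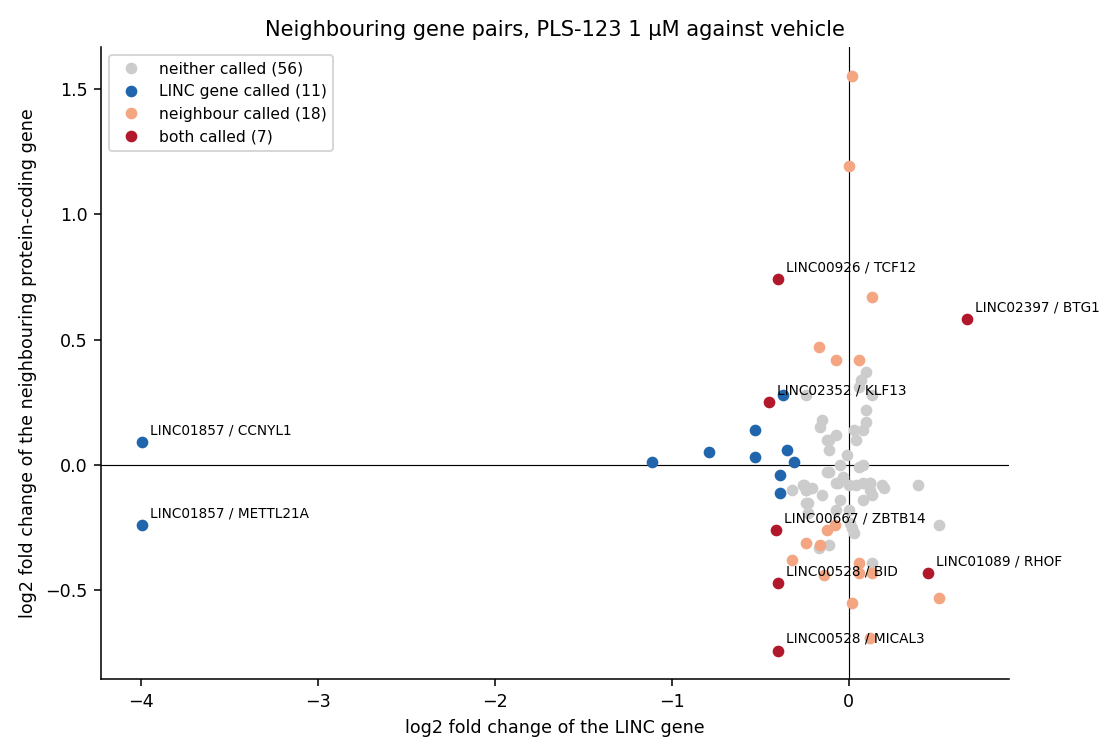
Log2 fold change with PLS-123 1 µM against vehicle of each LINC gene (x axis) and of its neighbouring protein-coding gene (y axis) in 92 pairs, coloured by which gene was called. The 7 pairs with both called lie in all 4 quadrants, and both neighbours of LINC01857 lie near 0 on the y axis.

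Other non-coding RNA genes at the same minimum gave a wider frame. Of 193 genes with antisense symbols, 16 rose and 40 fell with PLS-123 (29% called), where 33.8% of all detected genes were called. With 10 µM ibrutinib 16 rose and 23 fell (20.2%), against 21.3% of all detected genes. Of 11 other named lncRNAs, 0 rose and 4 fell with PLS-123 (36.4%), and 1 rose and 2 fell with 10 µM ibrutinib (27.3%). Of 8 hosts of snoRNAs, SNHG33 rose with PLS-123 (0.82 ± 0.09, adjusted p = 3.25e-05), and DANCR (-0.47) and SNHG17 (-0.28) fell (37.5% called). With 10 µM ibrutinib 25% were called, SNHG33 (0.53 ± 0.09, adjusted p = 0.00162) and DANCR (-0.40 ± 0.07, adjusted p = 0.00207). MIR17HG, the host of the miR-17-92 cluster, was the single one of 5 miRNA hosts called against vehicle (20%). It rose by 1.53 ± 0.16 with PLS-123 (adjusted p = 1.99e-05) and by 0.76 ± 0.16 with 10 µM ibrutinib (adjusted p = 0.00754). With 1 µM ibrutinib the highest log2 fold change among the 5 hosts was 0.87, not called. Whether these shares differ from that of the LINC genes was not tested.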

How the data were processed

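Total RNA of OCI-Ly7 cells was hybridised to Affymetrix U133 Plus 2.0 arrays. The deposited values are linear intensity, 1 value per probe set and array, which the submitters' processing notes credit to RMA (version not given in the sources used here). They ran from 2.09 to 15751. Their log2 was used, and the 62 control probe sets were left out of 54675. Gene names came from the platform annotation, in which 41091 probe sets had 1 symbol, 1801 several and 11721 none, and the brightest single-symbol probe set stood for a gene.

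Groups were compared with limma 3.58.1 in R 4.3.3 (lmFit and eBayes, all 12 arrays, 1 mean per group), with Benjamini-Hochberg adjustment over 54613 probe sets. The script was tested on simulated data. The number of arrays limits the precision. Sequences and gene order came from RefSeq. The members, lists and rules were chosen with earlier results of these data known. The genes named were the largest called rises and falls with PLS-123 and with 10 µM ibrutinib whose arrays did not overlap vehicle, the 5 brightest, those with the smallest adjusted p where none was called, genes at the limit and a few of known role. Alternatives covered the test, normalization, filters, probe set choice, the limit of 4.5, the ACTB difference as a covariate, a replicate block and leaving out each array, and, chosen after seeing the data, leaving out _x_at and _s_at probe sets.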

Additional observations from a re-analysis of the deposited data

How the results depend on the processing

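The counts of LINC genes called moved with the processing, whereas no named gene changed direction in any fit in which it was called. With PLS-123 against vehicle (16 called, 3 risen, 13 fallen), the counts were 4, 0 and 4 with the ACTB difference as a covariate, 7, 0 and 7 by the methods' t-test after Benjamini-Hochberg adjustment, and 5, 1 and 4 with a 1.5-fold minimum, by adjusted or by unadjusted p. Without dim probe sets 20 fell, where fewer probe sets enter the adjustment, and with a member minimum of 4.0 there were 7 risen. With 10 µM ibrutinib against vehicle, 1 rose by the t-test after adjustment, LINC00537, and another 1 with the 1.5-fold minimum, LINC02397. There 2 fell with the median over probe sets. Between PLS-123 and 1 µM ibrutinib (8 called), 4 were called with the covariate, the t-test or the 1.5-fold minimum, 5 on these groups alone, and 13 without dim probe sets (10 fallen). Of the 2 risen there, 0 were left with the covariate, the t-test or the 1.5-fold minimum and 1 on these groups alone or without _x_at and _s_at probe sets. Between the ibrutinib doses (6 called), the t-test after adjustment called 3 and 0 risen, the 1.5-fold minimum left 1 risen, and 7 fell without dim probe sets. Between PLS-123 and 10 µM ibrutinib, 1 was called with 1 probe set per gene or without dim probe sets and 3 with an intensity trend. The cause of the other differences was not tested. At the threshold of the study's methods, a 1.5-fold change and an unadjusted p under 0.05, the t-test called 5 LINC genes with PLS-123 against vehicle and 4 with 10 µM ibrutinib. A change of at least 1.5-fold, whatever its p, was seen in 6.25% of LINC genes and 10.5% of all detected genes with PLS-123. With 10 µM ibrutinib the shares were 5% and 8.06%. Shares over all genes were not taken for the t-test or the other alternative fits. These counts therefore do not show whether LINC genes differ from the rest of the array.

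Leaving out each array in turn gave 4 to 17 called with PLS-123 against vehicle (0 to 5 risen, 4 to 14 fallen), 4 to 7 with 10 µM ibrutinib (1 to 2 risen, 3 to 5 fallen), 4 to 9 between PLS-123 and 1 µM ibrutinib (0 to 2 risen, 4 to 7 fallen), 4 to 7 between the ibrutinib doses (1 to 2 risen, 3 to 5 fallen), and 0 in the other 2 comparisons. The arrays share replicate letters. Residuals of arrays with the same letter correlated between -0.245 and 0.253, and those of unlike letters between -0.358 and 0.353. The main fit used no block, but these correlations cannot decide whether a letter marks a shared culture or batch. With the letter as a replicate block, 14 were called with PLS-123 against vehicle, 6 with 10 µM ibrutinib, 7 between its doses and 5 between PLS-123 and 1 µM ibrutinib, with 0 risen there. No detection calls were used here, so the limit of 4.5 stands in for background, and 55 of the 80 LINC genes had means under 6.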
